A study of Homo sapiens with 6 samples.

Results

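H1299 cells that carried the second of 2 shRNAs against RBP2 were compared with H1299 cells that carried a scramble shRNA. The 4 arrays of this comparison, 2 per group, were chosen by the shRNA named in the sample labels (RBP2 KD2 and SC) and make up 4 of the 6 arrays of the series. The other arrays, 2 of cells with RBP2 KD1, are used only to estimate the spread and to set shRNA 2 beside shRNA 1. H1299 is an established line of human lung cancer cells (non-small-cell type) without p53. By a protocol given alike for every group, the scramble group included, the cells were infected with a lentivirus that makes a short hairpin RNA, were kept in RPMI with 10% fetal calf serum and were harvested at 72 hours. Total RNA (250 ng) was labelled with biotin and hybridised to Affymetrix arrays, and each value is a log2 intensity of a probe set made by the authors with GCRMA. The labels give no dose of virus, no selection and no protein level, and they do not say that the replicates were separate cultures. Each p-value is therefore set against the spread of these arrays alone, and that spread may be technical.

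RBP2 is an older name of KDM5A, an enzyme that removes methyl groups from lysine 4 of histone H3, a mark of active promoters, and that binds the retinoblastoma protein. The retinoblastoma protein and its relatives hold back E2F factors, which switch on genes of DNA replication. Genes of mitosis are switched on later, by B-MYB and FOXM1 at promoters that hold a CHR element. ATF4 is a bZIP factor that switches on amino acid synthesis, transport and stress genes when amino acids run short or proteins misfold. The study's own interest, as far as it is known, lay in integrin beta 1 and in inhibitors of cyclin-dependent kinases (CDKs).

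Of 54613 probe sets other than controls, 22330 had a mean log2 value of at least 4 over the 6 arrays and were tested. They stood for 10526 genes, each by its brightest probe set with a single gene symbol, while 9249 genes were set aside as dim. Array medians over the tested genes lay between 8.49 and 8.56. Across probe sets the shRNA 2 arrays correlated at 0.991 with each other and at 0.933 to 0.949 with the scramble arrays. Markers expected in this line (VIM, KRT8, KRT18, CD44, AXL and LGALS1) were well above the lowest value of 2.24 on all arrays, and S100A6 went against its list by standing at that value on all 6. Of 23 markers of blood, endothelium, liver, lung epithelium, muscle, nerve and stroma, 4 passed the filter (SFTPB, MBP, SNAP25 and COL1A1). Of these 23, 14 stood within 0.01 log2 of the lowest value in both scramble arrays and 12 in both shRNA 2 arrays, and their summed level was 70.6 to 71.3 against 72.9 to 73.2. SNAP25, a synaptic membrane fusion protein, read 8.51 and 8.89 in scramble cells and 10.12 and 10.10 with shRNA 2 and was the only one of the 4 called (1.41 ± 0.16, SE, adjusted p = 0.0071).

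With shRNA 2, 5653 probe sets (25.3%) differed from scramble at a Benjamini-Hochberg adjusted p under 0.05 in limma, 2891 higher and 2762 lower. At the level of genes 1573 rose (14.9% of those tested) and 1401 fell (13.3%), with a median difference of 0.08 over all genes on the log2 scale. The falls were the larger changes: 856 of the falling genes and 613 of the rising ones differed at least 2-fold, and 99 against 8 differed at least 8-fold. Same-numbered replicates were also compared as pairs. The change in pair 1 and the change in pair 2 had a correlation of 0.93 across the 10526 genes, which are not independent replicates, and the same sign in 84.6% of them. The sign was the same in all 2974 called genes. A gene whose pairs disagree could hardly be called, so that adds no support. With a block for the replicate number, 2771 genes rose (26.3%) and 2188 fell (20.8%), and these included all 2974. That is 47.1% of all tested genes, and the counts with the block in each list below are to be read against these shares. Both shRNA 2 arrays lay below both scramble arrays for 3136 genes (29.8%) and above them for 4214 (40%). Most named genes were picked among called ones, so a lack of overlap given for them below is a description and adds no support. With 2 arrays a group the number of calls depends strongly on each array. Without scramble replicate 1 there were 363 called probe sets, without scramble replicate 2 there were 1386, without shRNA 2 replicate 1 there were 177 and without shRNA 2 replicate 2 there were 1572. In those fits the lone array is assumed to vary like the other groups, and 6361 to 7175 probe sets had an unadjusted p under 0.05. Of the 187 genes named by rule, 18 were called whichever of the 6 arrays was left out: KDM5A, SETD7, LAMC1, LAMP1, CNN3, PXN, TLN1, TXN, SLC7A11, CHAC1, JDP2, SESN2, SHMT2, ACOX2, SOCS1, RGL1, HHIP-AS1 and ENTREP2. The call was lost with any 1 of the 6 arrays left out for ATP5F1C, KMT2D, MGLL, MMP1, MRPL34, NDUFV2, RPL19 and TNRC6A. Many more named genes kept it only without an shRNA 1 array, which leaves the 4 compared arrays in place. BLM, CDC45, CDCA8, BIRC5, RRM2, ASNS, E2F7, CBLN2, SC5D and AARS1 were among these and lost it without any 1 of the 4 compared arrays. The filter bears on rises from a dim level: 78 genes had a mean under 4 over the other 4 arrays and passed through the shRNA 2 arrays alone, of which 44 were called higher. The 8 named ones, CBLN2, H4C8, HHIP-AS1, ITGB8, MMP2, RGL1, SOCS1 and SYT11, could be tested only because they were high there, and their values below are a description. The filter bears on falls too: 35 genes had a mean under 4 over the arrays other than scramble, of which 9 were called lower. None of the 35 is named by rule, but 4 are in the lists below, namely CLSPN, PLK1, PLK3 and PPP1R15A. The filter was not redone with an array left out. That SOCS1, RGL1 and HHIP-AS1 kept their calls in those fits is therefore no support for their rises.

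**Figure D1:**
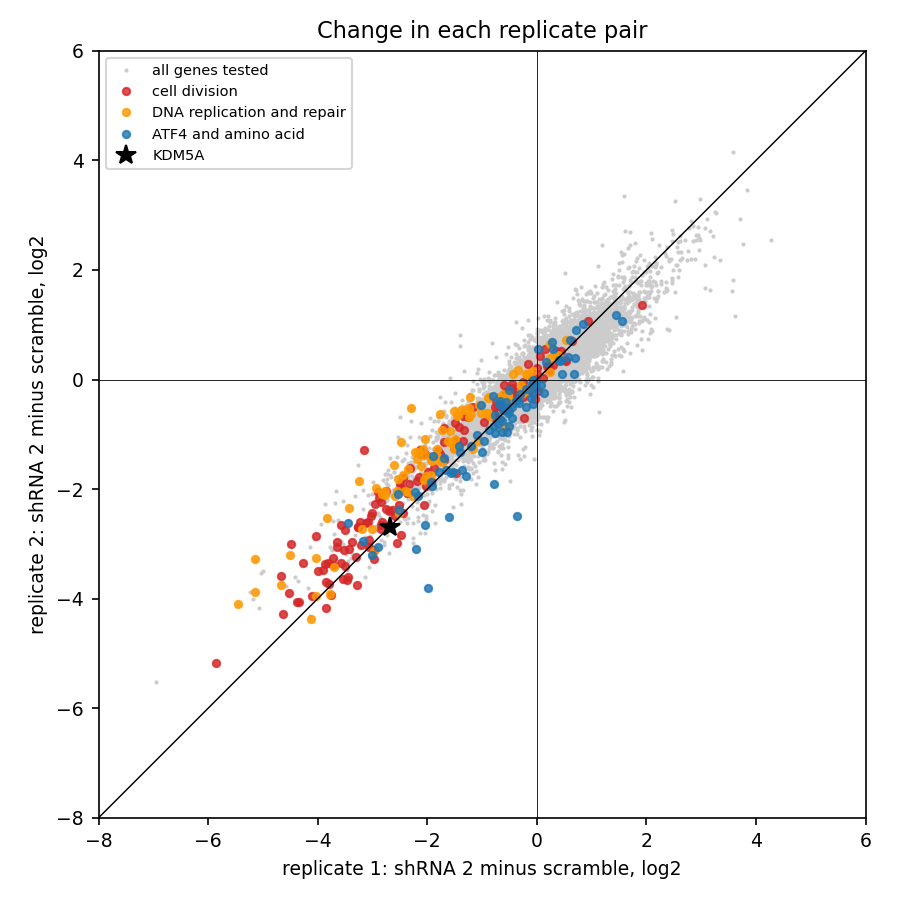
Change of each tested gene in replicate 1 (x axis) and in replicate 2 (y axis), shRNA 2 minus scramble on the log2 scale. Grey points are all 10526 genes, coloured points are genes of the cell division (red), DNA replication and repair (orange) and ATF4 and amino acid (blue) lists, the star is KDM5A, and most red and orange points lie far below 0 in both pairs and above the diagonal, that is, with the larger fall in replicate 1.

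KDM5A itself was lower in both shRNA 2 arrays on every probe set. Its brightest probe set read 9.35 and 9.42 in the scramble arrays and 6.66 and 6.72 with shRNA 2. That is a fall of 2.69 ± 0.11 (SE) on the log2 scale, or 6.46-fold (adjusted p = 0.0036), and the groups did not overlap. The other 3 probe sets of KDM5A that passed the filter gave -2.36, -2.82 and -2.92. The remaining one, too dim to be tested, read 3.15 and 2.63 in scramble cells and 2.25, its floor, in both shRNA 2 arrays. With any 1 array left out the change of the brightest probe set stayed between -2.73 and -2.65 and was called. In the shRNA 1 arrays this probe set read 7.42 and 7.27, and the level with shRNA 2 was lower than that by 0.65 ± 0.11 (adjusted p = 0.012). On the other 3 tested probe sets the difference between the shRNAs was -0.30, -0.38 and -0.40 and was not called.

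**Figure D2:**
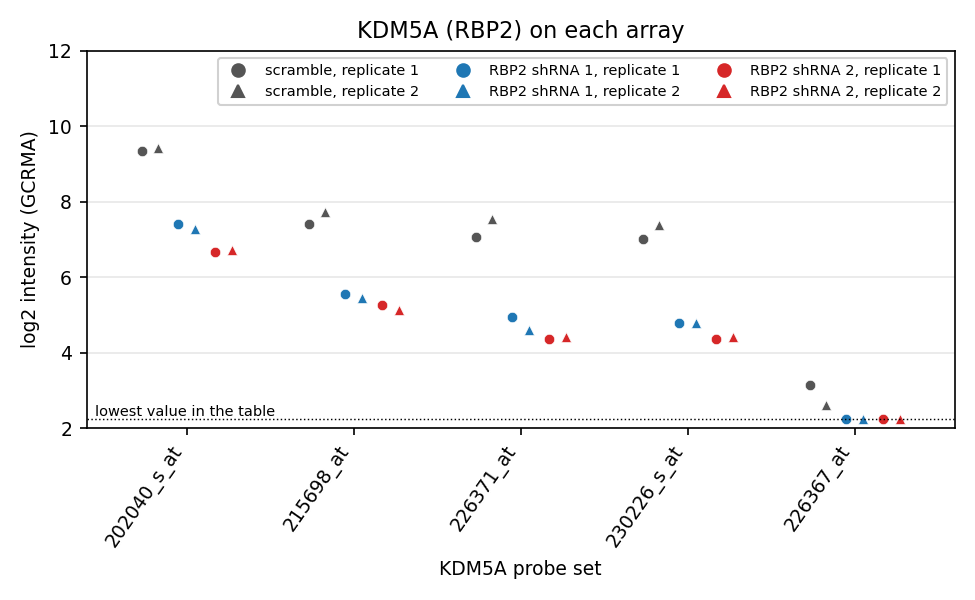
Log2 intensity of the 5 KDM5A probe sets (x axis) on each of the 6 arrays, with circles for replicate 1 and triangles for replicate 2. On each probe set both shRNA 2 arrays lie below both scramble arrays, by 2.36 to 2.92 on the 4 that were tested, and the dotted line is the lowest value in the table, 2.24.

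Among the other tested enzymes and partners of histone H3 lysine 4 methylation, SETD7 differed most from scramble. SETD7, a lysine methyltransferase that acts on histone H3 and on other proteins, read 9.61 and 9.44 in scramble cells and 6.95 and 6.92 with shRNA 2, a fall of 2.59 ± 0.11 (6.04-fold, adjusted p = 0.0036). It was the one fall among 16 tested members of the H3K4 methyltransferase list, in which KMT2B, KMT2C and KMT2D, catalytic subunits of large methyltransferase complexes, rose by 0.62, 0.74 and 0.66. The median of that list was 0.12, and 25% of it was called, against 28.3% of all genes in either direction. Of the KDM5 relatives, KDM5B differed by 0.08 and KDM5C by 0.36, and neither was called. Among 19 other lysine demethylases 2 fell, KDM4D (-1.11) and PHF8 (-0.98), with a list median of 0.11. KDM4D was dim, at 4.64 on every scramble and shRNA 1 array and at 3.17 and 3.89 with shRNA 2. Its spread thus came from the shRNA 2 arrays alone. With 1 array left out the change lay between -1.47 and -0.75 for KDM4D and between -1.24 and -0.71 for PHF8. Of 26 tested SIN3, HDAC and KDM5A partner genes 3 fell, namely RBPJ (-1.12), the DNA-binding factor of the Notch pathway that binds KDM5A, EMSY (-0.79) and SUDS3 (-0.64), and the list median was 0.05. The share called was 10.5% of these demethylases and 11.5% of the partners. With the replicate block this partner list had 5 rises and 7 falls, or 46.2% called against 47.1% of all genes. SETD7 was called whichever array was left out. For the partner list, the number called lower was 0, 0, 0 and 2 without scramble replicate 1, scramble replicate 2, shRNA 2 replicate 1 and shRNA 2 replicate 2 (3, 5, 3 and 5 at an unadjusted p under 0.05 in limma). For the methyltransferases, the number called higher was 0, 0, 0 and 0 without scramble replicate 1, scramble replicate 2, shRNA 2 replicate 1 and shRNA 2 replicate 2 (3, 3, 3 and 2 at an unadjusted p under 0.05 in limma).

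Genes of cell division fell together. Over 7 lists (mitotic cyclins, Aurora and polo kinases, kinetochore, mitotic kinesins, the anaphase-promoting complex, condensin and cohesin, and the MuvB, B-MYB and FOXM1 factors), 87 of 141 tested genes fell and 3 rose. That is 61.7% called lower, against 13.3% of all genes. Their median was -1.98, against 0.08 over all genes. For 115 of the 141 both shRNA 2 arrays lay below both scramble arrays, against 29.8% of all tested genes. The falls were present in both pairs, with medians of -2.14 and -1.79. With the replicate block 105 fell and 7 rose. In bulk RNA, fewer cells in a phase of the cell cycle and less RNA per cell cannot be told apart.

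The replicates themselves differed in these genes. Scramble replicate 1 was above scramble replicate 2 for 124 of the 141, by a median of 0.60, and shRNA 2 replicate 1 was above shRNA 2 replicate 2 for 108 of them, by 0.21. The ratio of the 3' to the 5' ACTB control probe sets, a sign of RNA quality, also went with the replicate number (1.93 to 1.99 on the log2 scale on replicate 1 arrays and 2.37 to 2.56 on replicate 2 arrays), and its part in these differences was not tested. In these lists together, the number called lower was 3, 27, 0 and 9 without scramble replicate 1, scramble replicate 2, shRNA 2 replicate 1 and shRNA 2 replicate 2 (85, 101, 90 and 83 at an unadjusted p under 0.05 in limma). The median of the cell division lists stayed between -2.38 and -1.63 in those fits.

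The promoters of 5 genes with large falls are shown because they carry letters of control elements known from these gene groups: 2 of mitosis with a CHR element, 1 of the S phase with E2F letters, and 2 of the amino acid response with ATF4 letters. They were chosen after the values were seen. Each runs from 250 bases before to 50 bases after the RefSeq start of the gene (GRCh38.p14), 5' to 3' on the strand of the gene, with the letters searched in capitals. CKS1B lies at chr1:154974431-154974730 (plus strand, CHR letters in capitals), CDCA8 at chr1:37692266-37692565 (plus strand, CHR), DTL at chr1:212035498-212035797 (plus strand, E2F), CHAC1 at chr15:40953221-40953520 (plus strand, ATF4 letters, read on the opposite strand) and ASNS at chr7:97872359-97872658 (minus strand, ATF4).
CKS1B: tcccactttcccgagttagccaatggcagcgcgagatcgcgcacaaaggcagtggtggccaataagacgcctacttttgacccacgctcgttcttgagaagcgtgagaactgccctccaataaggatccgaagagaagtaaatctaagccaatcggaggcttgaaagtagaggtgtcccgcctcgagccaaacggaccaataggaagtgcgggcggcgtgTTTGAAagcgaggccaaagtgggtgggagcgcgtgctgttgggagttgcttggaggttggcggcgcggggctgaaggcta
CDCA8: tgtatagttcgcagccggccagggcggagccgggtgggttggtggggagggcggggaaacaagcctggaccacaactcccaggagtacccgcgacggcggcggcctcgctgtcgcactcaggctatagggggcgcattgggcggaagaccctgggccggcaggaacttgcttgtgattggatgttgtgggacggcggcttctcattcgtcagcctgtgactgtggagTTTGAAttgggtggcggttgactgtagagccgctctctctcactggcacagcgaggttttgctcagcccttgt
DTL: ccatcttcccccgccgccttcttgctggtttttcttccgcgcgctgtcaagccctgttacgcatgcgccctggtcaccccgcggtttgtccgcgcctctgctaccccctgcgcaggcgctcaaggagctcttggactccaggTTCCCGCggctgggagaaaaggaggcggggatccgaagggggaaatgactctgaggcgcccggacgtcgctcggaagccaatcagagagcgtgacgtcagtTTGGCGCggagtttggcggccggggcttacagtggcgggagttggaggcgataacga
CHAC1: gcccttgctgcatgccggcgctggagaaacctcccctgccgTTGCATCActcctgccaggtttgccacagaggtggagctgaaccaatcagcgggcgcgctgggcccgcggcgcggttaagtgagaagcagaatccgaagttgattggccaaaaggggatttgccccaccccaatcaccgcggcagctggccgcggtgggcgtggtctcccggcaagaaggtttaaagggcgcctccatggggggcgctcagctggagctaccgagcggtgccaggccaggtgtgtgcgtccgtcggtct
ASNS: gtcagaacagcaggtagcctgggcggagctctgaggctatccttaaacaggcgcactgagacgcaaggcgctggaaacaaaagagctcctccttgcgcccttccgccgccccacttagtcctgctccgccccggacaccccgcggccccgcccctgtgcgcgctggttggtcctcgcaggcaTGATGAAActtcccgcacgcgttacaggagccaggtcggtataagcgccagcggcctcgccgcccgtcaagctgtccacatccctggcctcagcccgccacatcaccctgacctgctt

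The letters searched, on both strands, were TTTGAA or TTCGAA for the CHR, TTCCCGC or TTGGCGC for E2F, TGATGNAA for ATF4, and CCAAT, the element bound by NF-Y. None of them contains another, but a reversed CCAAT can share the letters TTGG with the second E2F form. A gene was counted where any of its promoter entries held the letters, and the lists include called and uncalled members alike. CHR letters stood in 58.3% of the genes of the cell division lists (120 genes with a promoter entry). The share was 15.5% of all tested genes with an entry and 19.5% of all 27305 genes with an entry. E2F letters stood in 57.1% of the genes of the DNA replication and repair lists (84 genes), in 32.5% of the cell division lists, in 18.4% of tested genes and in 11.0% of all. ATF4 letters stood in 27.1% of the genes of the ATF4 and amino acid lists (70 genes), in 2.59% of tested genes and in 4.46% of all. CCAAT was found in 64.2%, 52.4% and 50% of the cell division, replication and ATF4 lists and in 44.3% of tested genes. A match describes the letters in this window and is neither a binding site nor a cause.

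Among mitotic cyclins, CDK1 and their regulators 9 of 13 tested members fell (69.2%, against 13.3% of all genes), with a median of -1.59. CKS1B, a small protein that binds CDKs and helps to destroy p27, showed the largest fall of them (its promoter is printed above). It read 12.72 and 11.87 in scramble cells and 6.86 and 6.70 with shRNA 2, a fall of 5.51 ± 0.44 (45.7-fold, adjusted p = 0.0047). The scramble arrays differed by less than 1 unit and the shRNA 2 arrays lay about 5 units below the lower of them. CDC25C, the phosphatase that activates CDK1 at entry into mitosis, went from 9.16 and 8.37 to 4.52 and 4.09 (-4.46 ± 0.47, adjusted p = 0.0068). CDK1 went from 12.14 and 11.56 to 9.08 and 8.51 (-3.06 ± 0.38, adjusted p = 0.009), and cyclin B2 (CCNB2) fell by 2.22. The groups did not overlap for any of these genes, while 29.8% of all tested genes lay below scramble without overlap. ENSA (-0.40) and ARPP19 (0.28), inhibitors of the phosphatase that opposes CDK1, were not called. With the block 11 members fell. Among these cyclins and regulators, the number called lower was 1, 3, 0 and 2 without scramble replicate 1, scramble replicate 2, shRNA 2 replicate 1 and shRNA 2 replicate 2 (9, 12, 10 and 9 at an unadjusted p under 0.05 in limma).

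Spindle genes fell almost as a whole. Of 28 tested mitotic kinesins and spindle proteins 24 fell (85.7%, against 13.3% of all genes), with a median of -3.05. The other 4 were also on the negative side (KIF22 -1.42, KIF18A -0.36, NUMA1 -0.30 and CKAP5 -0.28). KIF15, a kinesin that helps to hold the poles of the spindle apart, read 8.15 and 7.46 in scramble cells and 3.48 and 3.87 with shRNA 2 (-4.13 ± 0.43, adjusted p = 0.0068). KIF11, the main motor of pole separation, read 10.03 and 9.54 and then 6.53 and 6.79 (-3.12 ± 0.29, adjusted p = 0.0055). HMMR, a spindle-associated hyaluronan receptor, fell by 3.52, and CEP55, needed for the final cut between daughter cells, fell by 3.56. Both scramble arrays were at least 3 units above both shRNA 2 arrays for HMMR and at least 2 units above them for KIF11. Of 12 tested Aurora, polo and passenger genes 8 fell (median -2.76), or 66.7% against 13.3% of all genes. Among them was CDCA8, or borealin, which went from 9.08 and 7.78 to 4.71 and 3.73 (-4.21 ± 0.69, adjusted p = 0.016). Other falls were BIRC5, or survivin (-3.84), PLK4, the kinase of centriole duplication (-2.84), and TPX2, the activator of Aurora A (-2.75). PLK1 (-1.0), PLK3 (-0.47) and PLK2 (1.64) were not called, and PLK2 was called higher with the block. Of the spindle genes, the number called lower was 0, 12, 0 and 2 without scramble replicate 1, scramble replicate 2, shRNA 2 replicate 1 and shRNA 2 replicate 2 (23, 25, 24 and 24 at an unadjusted p under 0.05 in limma). Of the Aurora and polo list, the number called lower was 0, 1, 0 and 0 without scramble replicate 1, scramble replicate 2, shRNA 2 replicate 1 and shRNA 2 replicate 2 (8, 8, 9 and 7 at an unadjusted p under 0.05 in limma).

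At the kinetochore, the structure that links chromosomes to the spindle, 28 of 39 tested genes fell and 1 rose, with a median of -2.48. That is 71.8% called lower, against 13.3% of all genes. CENPQ went from 8.96 and 8.22 to 4.43 and 4.33 (-4.21 ± 0.39, adjusted p = 0.0055). CENPE, the motor that carries chromosomes to the spindle equator, fell by 3.74, and the checkpoint kinase BUB1B (-3.49) and CENPL (-3.04) fell too. For these 4 genes both shRNA 2 arrays lay below both scramble arrays, as they did for 29.8% of all tested genes. The one rise was MAD1L1, the anchor of MAD2 in the spindle checkpoint, from 7.28 and 7.45 to 8.21 and 8.52 (1.00 ± 0.15, adjusted p = 0.014). With the block 36 fell and 2 rose. Of 20 tested genes of the anaphase-promoting complex and its partners 8 fell and 2 rose, with a median of -0.37. That is 50% called, against 28.3% of all genes. The rises were of the core subunits CDC26 (0.67) and ANAPC2 (0.48). The falls included the core subunits CDC27 (-1.96), CDC23 (-2.03) and ANAPC13 (-1.56) and the substrate PTTG1, or securin (-3.12). FZR1 (0.11), ANAPC11 (0.05) and ANAPC4 (-0.01) hardly differed. In the condensin and cohesin list 9 of 22 fell (median -0.57), or 40.9% called lower against 13.3% of all genes. The condensin subunits NCAPG (-3.58), NCAPD2 (-2.20), NCAPG2 (-2.54) and SMC4 (-2.40) fell, and among core cohesin subunits RAD21 fell by 0.57 while SMC1A (-0.57), SMC3 (-0.29) and STAG2 (0.07) were not called. With the block 13 of the 22 fell and 1 rose. In the MuvB, B-MYB and FOXM1 list LIN9 (-0.59) was the 1 called member of 7, and B-MYB (MYBL2, -1.98) and FOXM1 (-1.90) were called only with the block. The share called was 14.3%, and 42.9% with the block, against 28.3% and 47.1% of all genes. At the kinetochore, the number called lower was 0, 6, 0 and 2 without scramble replicate 1, scramble replicate 2, shRNA 2 replicate 1 and shRNA 2 replicate 2 (28, 33, 28 and 26 at an unadjusted p under 0.05 in limma). For condensin and cohesin, the number called lower was 0, 1, 0 and 0 without scramble replicate 1, scramble replicate 2, shRNA 2 replicate 1 and shRNA 2 replicate 2 (9, 11, 9 and 8 at an unadjusted p under 0.05 in limma).

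DNA replication and repair followed, with 45 of 98 tested genes lower and a median of -1.40 (-1.74 in pair 1 and -1.20 in pair 2). That is 45.9% called lower, against 13.3% of all genes. With the replicate block 75 fell and 3 rose. Both shRNA 2 arrays were below both scramble arrays for 83 of the 98, against 29.8% of all tested genes. Scramble replicate 1 was above replicate 2 for 93 of them, by a median of 0.67. In the replication and repair lists, the number called lower was 1, 12, 0 and 4 without scramble replicate 1, scramble replicate 2, shRNA 2 replicate 1 and shRNA 2 replicate 2 (40, 72, 46 and 42 at an unadjusted p under 0.05 in limma). Their medians lay between -1.81 and -1.11 in those fits. The largest fall of all tested genes was that of DTL, which directs a ubiquitin ligase to the origin licensing factor CDT1. DTL read 10.50 and 9.50 in scramble cells and 3.55 and 3.97 with shRNA 2, a fall of 6.24 ± 0.61 (75.5-fold, adjusted p = 0.0058), and its second probe set fell by 4.38. The groups did not overlap, although the scramble arrays were 1 unit apart.

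At replication origins 12 of 24 tested genes fell (median -1.71), or 50% called lower against 13.3% of all genes. CDC45, a part of the replicative helicase, went from 8.19 and 6.93 to 3.05 on both shRNA 2 arrays, where it shares its floor, so that its change of -4.51 is a lower bound in size. GINS2, another helicase part, went from 10.34 and 8.93 to 5.67 and 5.17 (-4.21 ± 0.65, adjusted p = 0.014). ORC6 of the origin recognition complex (-2.48) and TOPBP1, which loads CDC45 (-1.95), fell. The helicase subunit MCM7 fell by 2.96, while MCM6 (-0.60) was not called. At the fork 13 of 29 fell (median -1.62), or 44.8%. TOP2A, which untangles sister DNA, went from 11.95 and 11.31 to 8.18 and 7.40 (-3.84 ± 0.46, adjusted p = 0.0083). The single-strand binding subunit RPA1, the clamp loader subunit RFC1 and the primase subunit PRIM2 fell by 1.70, 1.62 and 2.21. PCNA (-0.88) was called only with the block, where 26 fork genes and 20 origin genes fell.

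Of 24 tested genes of homologous recombination and the Fanconi pathway 13 fell (median -1.49), or 54.2% called lower against 13.3% of all genes. BLM, a helicase that resolves recombination intermediates, went from 7.72 and 6.55 to 2.27 and 2.45, values close to the lowest of the table (-4.78 ± 0.68, adjusted p = 0.012). FANCI, FANCG, BRIP1 and RMI1 fell by 3.64, 2.44, 2.88 and 1.84, and for each the groups did not overlap. Of all tested genes 29.8% lay below scramble without overlap. PALB2 differed by 0.04 and NBN by 0.42. In nucleotide synthesis 7 of 21 fell (median -0.48), or 33.3% against 13.3% of all genes called lower. RRM2, the cell cycle subunit of ribonucleotide reductase, read 12.79 and 11.80 and then 9.09 and 8.39 (-3.56 ± 0.56, adjusted p = 0.015), RRM2B fell by 1.89, DUT by 1.29 and GART, of purine synthesis, by 1.84. The purine enzymes PAICS (-0.40) and IMPDH2 (-0.20) were not called. With the block 18 recombination genes and 11 nucleotide genes fell. Other large falls outside these lists were DEPDC1B (-4.62), DDIAS (-4.60), TCF19 (-4.28), FIRRM (-4.25), a regulator of recombination, and FBXO43 (-4.23), an inhibitor of the anaphase-promoting complex.

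In the G1 phase CDK2, CDK4 and CDK6 fell while cyclins moved both ways. Of 13 tested G1 cyclins and kinases 6 fell and 3 rose, and the block gave the same numbers. That is 69.2% called, against 28.3% of all genes without the block and 47.1% with it. CDK2, the kinase of the G1 to S transition, read 10.37 and 9.70 in scramble cells and 5.14 and 5.81 with shRNA 2 (-4.56 ± 0.40, 23.5-fold, adjusted p = 0.0053). CDK4 read 11.40 and 11.01 and then 8.68 and 9.29 (-2.22 ± 0.26, adjusted p = 0.008). CDK6 read 12.20 and 11.98 and then 10.34 and 10.32 (-1.76 ± 0.13, adjusted p = 0.0046). In all 3 kinases the shRNA 2 arrays were the low ones and the groups did not overlap, as for 29.8% of all tested genes. Cyclin D1 (CCND1), the partner of CDK4 and CDK6, rose from 11.29 and 11.43 to 12.67 and 12.58 (1.27 ± 0.12, adjusted p = 0.0058), while cyclins E2 (CCNE2, -3.36), A2 (CCNA2, -3.0) and D2 (CCND2, -1.51) fell and cyclin E1 (CCNE1) differed by -0.01. The other rises were of cyclin D3 (CCND3, 0.82) and of CDK7 (0.46), the kinase that activates other CDKs. For the G1 list, the number called lower was 1, 3, 0 and 3 without scramble replicate 1, scramble replicate 2, shRNA 2 replicate 1 and shRNA 2 replicate 2 (6, 6, 6 and 6 at an unadjusted p under 0.05 in limma).

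Of 11 tested retinoblastoma and E2F genes 3 fell (median -0.76), or 27.3% called against 28.3% of all genes. RB1, the retinoblastoma protein that KDM5A binds, read 11.56 and 11.53 in scramble cells and 9.87 and 10.44 with shRNA 2 (-1.39 ± 0.21, adjusted p = 0.013). The repressors E2F7 (-3.01) and E2F8 (-2.40) fell. E2F3 (-0.22), E2F6 (-0.20), TFDP1 (-0.18) and RBL2 (-0.25) lay close to the level of scramble cells and were not called, and with the block 6 of the 11 fell. Of 7 tested CDK inhibitors limma called 0 higher, also at an unadjusted p under 0.05. In either direction 28.6% of them were called. CDKN1A, or p21, read 8.36 and 7.84 in scramble cells and 7.63 and 7.55 with shRNA 2 (-0.51 ± 0.23, adjusted p = 0.16, and 0.042 with the block). CDKN1B, or p27, read 11.72 and 11.81 and then 11.91 and 11.67 (0.02 ± 0.13, adjusted p = 0.92), so its groups overlapped. CDKN2B, or p15, differed by 0.39 ± 0.26 (adjusted p = 0.33) and CDKN1C, or p57, by -1.02 ± 0.45 (adjusted p = 0.16). The 2 falls among the inhibitors were CDKN2A (-0.58 ± 0.12, adjusted p = 0.026) and CDKN3 (-2.40 ± 0.53, adjusted p = 0.032), a phosphatase that acts on CDK2 and CDK1. For the inhibitors, the number called lower was 0, 0, 0 and 0 without scramble replicate 1, scramble replicate 2, shRNA 2 replicate 1 and shRNA 2 replicate 2 (3, 3, 2 and 2 at an unadjusted p under 0.05 in limma). For the retinoblastoma and E2F list, the number called lower was 0, 0, 0 and 1 without scramble replicate 1, scramble replicate 2, shRNA 2 replicate 1 and shRNA 2 replicate 2 (2, 4, 3 and 3 at an unadjusted p under 0.05 in limma).

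**Figure D3:**
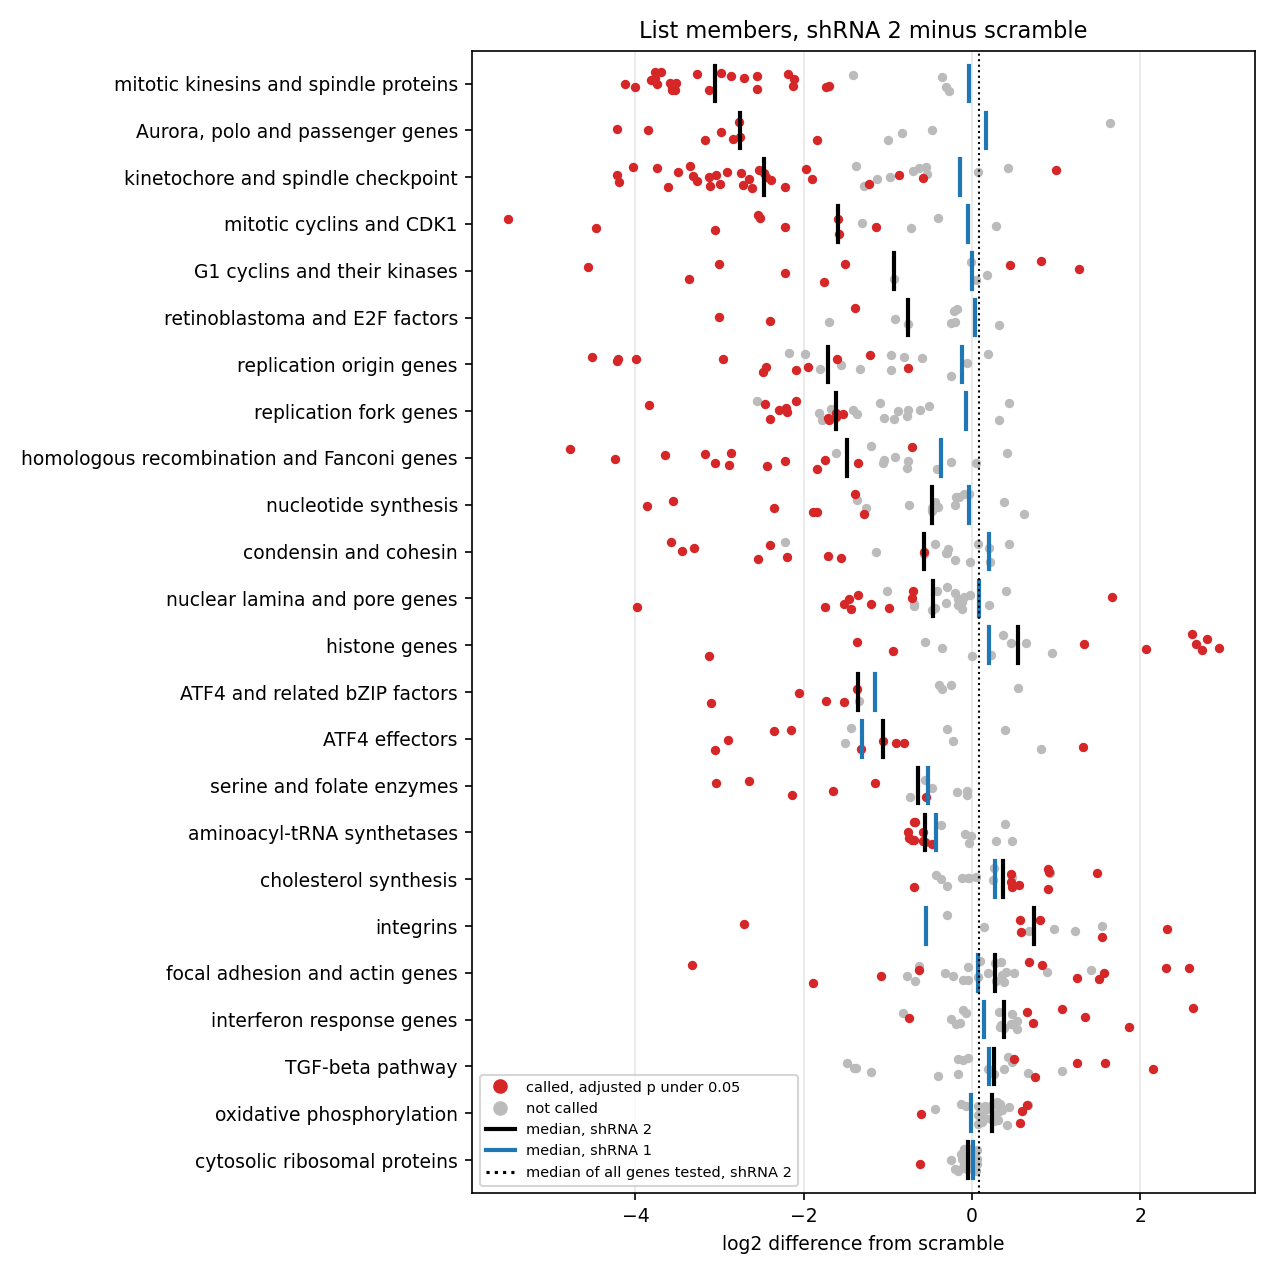
Log2 difference of shRNA 2 minus scramble (x axis) for every tested member of 24 gene lists (y axis), red where called and grey where not. Black bars are list medians with shRNA 2, blue bars those with shRNA 1, and the dotted line is the median of all tested genes, 0.08; the spindle list sits at -3.05 with shRNA 2 and -0.04 with shRNA 1.

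Histone genes moved both ways. Of 18 tested members 7 rose and 3 fell (median 0.55), or 55.6% called against 28.3% of all genes. The rises were all of clustered histone genes: H4C8 from 3.60 and 3.46 to 6.77 and 6.16 (2.94), H2AC8 (2.79), H2BC4 (2.74), H2BC5 (2.66), H2BC21 (2.62), H2AC6 (2.06) and H2BC6 (1.32). H4C8 was dim on both scramble arrays and passed the filter through the shRNA 2 arrays alone, and clustered histone genes are so alike that probe sets may read several copies. The falls were of CENPA, the centromere histone (-3.12), H1-10 (-1.37) and H2AZ1 (-0.94). Among histones, the number called higher was 0, 3, 1 and 2 without scramble replicate 1, scramble replicate 2, shRNA 2 replicate 1 and shRNA 2 replicate 2 (8, 9, 10 and 8 at an unadjusted p under 0.05 in limma). Of 28 nuclear lamina and pore genes 10 fell and 1 rose (median -0.46), or 39.3% called against 28.3% of all genes. LMNB1, or lamin B1, a lamina protein that is lost from senescent cells, went from 8.60 and 7.79 to 4.43 and 3.99 (-3.98 ± 0.46, adjusted p = 0.0078). LMNB2 (-0.29) and LMNA (0.20) were not called. NUP43 fell by 0.99. NUP160 fell by 1.36, with a second probe set at 0.16, and NUP210 (-1.46) fell to a shared floor, with other probe sets from -2.16 to 0.18. The one rise, NUP58 (1.66), had other probe sets from -1.41 to -0.41. With the block 15 fell and 2 rose. For lamina and pores, the number called lower was 0, 3, 0 and 2 without scramble replicate 1, scramble replicate 2, shRNA 2 replicate 1 and shRNA 2 replicate 2 (10, 14, 10 and 10 at an unadjusted p under 0.05 in limma).

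ATF4 fell, as did part of the genes in 6 lists of related factors, ATF4 effectors, cystine and glutathione genes, serine and folate enzymes, amino acid transporters and synthetic enzymes, and aminoacyl-tRNA synthetases. Over the 6 lists, which also hold genes not known as ATF4 targets, 43 of 85 tested genes fell, 3 rose and the others were not called, with a median of -0.58 in all and of -0.57 and -0.58 in the 2 pairs. The share called lower was 50.6%, against 13.3% of all genes. PPP1R15A (-0.90), 1 of the 43, passed the filter only because it was higher in the scramble arrays. Scramble replicates did not part in these genes (median difference 0.02, replicate 1 higher for 43 of 85). With the block 50 fell and 10 rose. In these 6 lists, the number called lower was 12, 16, 6 and 16 without scramble replicate 1, scramble replicate 2, shRNA 2 replicate 1 and shRNA 2 replicate 2 (45, 45, 43 and 43 at an unadjusted p under 0.05 in limma). The median stayed between -0.66 and -0.56.

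ATF4 read 12.73 and 12.77 in scramble cells and 11.33 and 11.45 with shRNA 2 (-1.36 ± 0.11, 2.57-fold, adjusted p = 0.0047). JDP2, a bZIP repressor, read 9.06 and 8.85 and then 6.05 and 5.65 (-3.11 ± 0.19, adjusted p = 0.0036). In both genes the replicates lay close together and the groups did not overlap. Of all tested genes 29.8% lay below scramble in that way. ATF5 (-1.74), CEBPB (-1.53) and DDIT3, or CHOP (-2.06), fell as well. That made 5 of 10 tested factors (median -1.35), or 50% called lower against 13.3% of all genes. ATF3 (-1.34), CEBPG (-0.35) and JUN (0.55) were not called. Of 15 tested effectors 8 fell and 1 rose (median -1.05), or 60% called against 28.3% of all genes. CHAC1, a glutathione-degrading enzyme whose promoter is printed above, read 7.32 and 7.47 and then 4.15 and 4.52 (-3.06 ± 0.16, 8.33-fold, adjusted p = 0.0036). SESN2, an inhibitor of mTORC1 activation, read 7.69 and 7.78 and then 5.52 and 5.65 (-2.15 ± 0.12, adjusted p = 0.0036), with its lowest value shared between arrays, so the fall is a lower bound. TRIB1, a pseudokinase, rose from 7.85 on both scramble arrays to 9.29 and 9.03 (1.31 ± 0.14, adjusted p = 0.0067). CTH, of cysteine synthesis, fell by 1.05.

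In serine and folate metabolism 6 of 12 tested enzymes fell (median -0.65), or 50% called lower against 13.3% of all genes. PHGDH, the first enzyme of serine synthesis, read 9.46 and 9.31 in scramble cells and 6.01 and 6.69 with shRNA 2 (-3.04 ± 0.27, 8.21-fold, adjusted p = 0.0053). SHMT2, of mitochondrial glycine synthesis, read 11.54 and 11.59 and then 9.30 and 9.54 (-2.14 ± 0.13, adjusted p = 0.0036). PSAT1 and MTHFD2, further steps of these routes, fell by 1.65 and 1.16. The cytosolic MTHFD1 (-0.55) and AHCY (-0.05) were not called. Among cystine and glutathione genes 8 of 17 fell (median -0.57), or 47.1% called lower. SLC7A11, the cystine importer, read 9.97 and 9.90 and then 7.06 and 6.84 (-2.98 ± 0.16, 7.89-fold, adjusted p = 0.0036), and its partner chain SLC3A2 fell by 1.90. TXN, or thioredoxin, read 14.08 and 13.95 and then 11.54 and 11.87 (-2.31 ± 0.15, adjusted p = 0.0042). GPX4 (0.38), TXNRD1 (0.28) and NQO1 (0.23) were not called.

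Asparagine synthetase, ASNS, read 13.70 and 13.81 in scramble cells and 11.18 and 11.43 with shRNA 2 (-2.45 ± 0.29, 5.47-fold, adjusted p = 0.0082). It belongs to a list of amino acid transporters and synthetic enzymes in which 8 of 16 fell and 2 rose (median -0.55). That is 62.5% called, against 28.3% of all genes. SLC7A5, the leucine transporter, and SLC1A4, a neutral amino acid transporter, fell by 1.93 and 1.56. The rises were of SLC36A1 (0.92) and ALDH18A1 (0.66), and SLC38A2 (-0.09) and SLC1A5 (-0.54) were not called. Of 17 aminoacyl-tRNA synthetases 10 fell by modest amounts (median -0.56, lowest -0.76), or 58.8% called lower against 13.3% of all genes. Among them were AARS1 (-0.76), HARS1 (-0.71), GARS1 (-0.69) and SARS1 (-0.69). For the synthetases, the number called lower was 0, 0, 0 and 0 without scramble replicate 1, scramble replicate 2, shRNA 2 replicate 1 and shRNA 2 replicate 2 (10, 11, 11 and 11 at an unadjusted p under 0.05 in limma). In the endoplasmic reticulum 6 of 22 chaperones and sensors fell and 1 rose (median -0.13), or 31.8% called against 28.3% of all genes. XBP1, the factor spliced by IRE1, fell by 1.13, with a second probe set at -0.02, HYOU1 by 0.99, HERPUD1 by 0.79 and HSP90B1 by 0.52. The rise was of EDEM1 (0.57), which helps to clear misfolded proteins. HSPA5 (-0.01), CALR (0.19) and DNAJB9 (0.32) were not called.

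**Figure D4:**
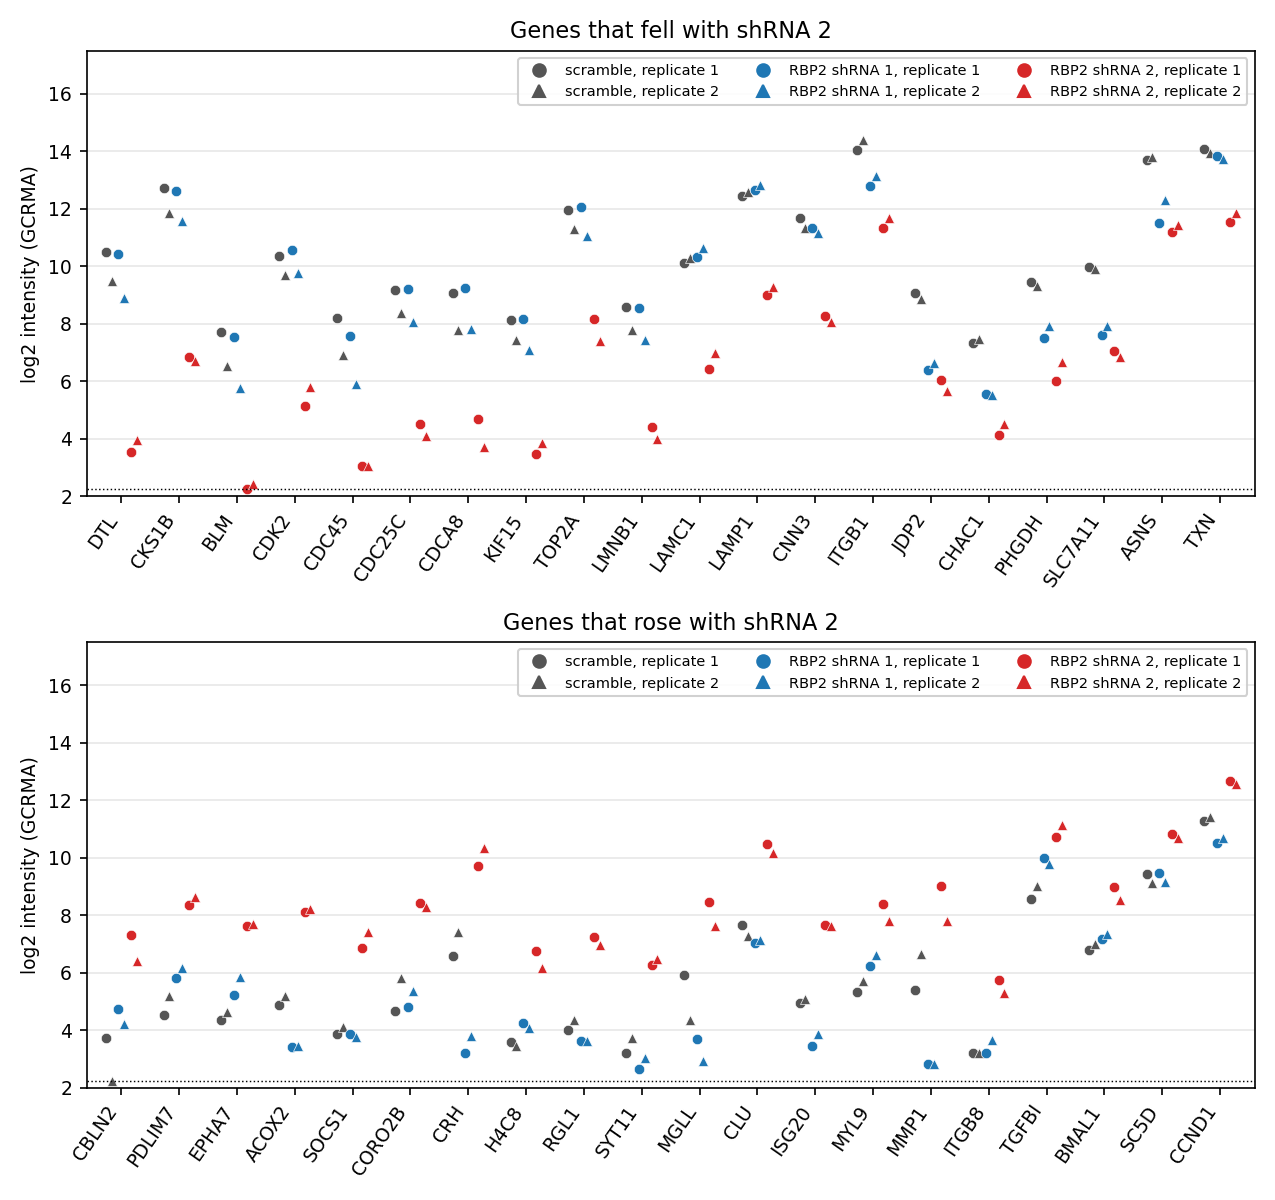
Log2 intensity (y axis) on each of the 6 arrays for 20 genes that fell and 20 that rose with shRNA 2, circles for replicate 1 and triangles for replicate 2, with the lowest value of the table as a dotted line. For each gene both red points lie on one side of both grey ones, as for KDM5A, while the blue points of shRNA 1 lie near the grey ones for cell division genes such as CKS1B (12.63 and 11.56) and near the red ones for SLC7A11 (7.61 and 7.93).

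Integrins moved both ways. ITGB1, the integrin beta 1 chain shared by most matrix receptors, read 14.05 and 14.38 in scramble cells and 11.32 and 11.69 with shRNA 2, a fall of 2.71 ± 0.22 (6.55-fold, adjusted p = 0.0047). Its 2 other tested probe sets gave -3.59 and -3.19, and both shRNA 2 arrays lay more than 2 units below both scramble arrays. ITGB1 was the only fall in its list: of 12 tested integrins 5 rose (median 0.74). That is 50% called, against 28.3% of all genes. ITGB8, which passed the filter through the shRNA 2 arrays alone, rose by 2.31 from a floor shared by both scramble arrays (3.22), which makes the rise a lower bound, and ITGA1, ITGA5, ITGAV and ITGB5 rose by 1.54, 0.80, 0.58 and 0.57. ITGA3 (-0.30) and ITGA6 (0.14) were not called. With the block 7 rose and 1 fell. Among integrins, the number called higher was 0, 2, 0 and 2 without scramble replicate 1, scramble replicate 2, shRNA 2 replicate 1 and shRNA 2 replicate 2 (6, 7, 6 and 6 at an unadjusted p under 0.05 in limma). ITGB1 was called without any 1 array except shRNA 2 replicate 1, where its adjusted p was 0.050.

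Of the matrix genes LAMC1, the laminin gamma 1 chain, read 10.10 and 10.29 in scramble cells and 6.43 and 7.0 with shRNA 2 (-3.48 ± 0.24, 11.1-fold, adjusted p = 0.0042), although its second probe set differed by -0.14. In that list of 16 laminins, collagens and related genes it was the 1 fall, and COL6A1 (1.36) and NID1 (0.71) rose. That is 18.8% called against 28.3% of all genes. LAMB1, the beta chain found with LAMC1, differed by 0.10. Of 31 tested focal adhesion and actin genes 7 rose and 4 fell (median 0.28), or 35.5% called. CNN3, an actin-binding calponin, read 11.68 and 11.34 and then 8.29 and 8.08 (-3.32 ± 0.17, adjusted p = 0.0036). PXN, or paxillin, an adaptor at focal adhesions, read 9.62 and 9.48 and then 7.70 and 7.62 (-1.89 ± 0.11, adjusted p = 0.0036). In both genes the shRNA 2 arrays were the low ones and the groups did not overlap, as for 29.8% of all tested genes. RAC1, a small GTPase of membrane ruffles, fell by 1.09. TLN1, or talin, which links integrins to actin, went from 6.03 and 5.83 to 8.40 and 8.08 (2.30 ± 0.16), but its other probe set went the other way, by -0.54. MYL9, a myosin light chain, and ZYX, or zyxin, rose by 2.58 and 1.57, and ACTB differed by 0.07. With the block 13 rose and 7 fell. In the focal adhesion list, the number called higher was 1, 5, 1 and 4 without scramble replicate 1, scramble replicate 2, shRNA 2 replicate 1 and shRNA 2 replicate 2 (11, 7, 8 and 10 at an unadjusted p under 0.05 in limma).

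Among matrix proteases and inhibitors 4 of 16 rose and 2 fell (median 0.30), or 37.5% called against 28.3% of all genes. ADAM9 and the plasminogen activator PLAU fell by 1.87 and 1.71, while the other activator, PLAT, rose by 1.12 and the gelatinase MMP2, which passed the filter through the shRNA 2 arrays alone, by 1.91. MMP1, the interstitial collagenase, went from 5.39 and 6.64 to 9.0 and 7.80 (2.39 ± 0.56, adjusted p = 0.037), with replicates of each group more than 1 unit apart and in opposite order, and the call was lost with any 1 of the 6 arrays left out (adjusted p = 0.063 to 0.17). TIMP1 (-0.09) was not called. In the list of epithelial and mesenchymal genes 3 of 12 fell and 1 rose (median -0.05, 33.3% called). ZEB2, a repressor of epithelial genes, fell by 1.93, AXL by 1.24 and OCLN by 0.53, against 0.48 up for TWIST1. VIM (-0.02) was not called. Of 14 receptor tyrosine kinases AXL and EPHA2 (-0.83) fell and EGFR rose (0.78), with a median of -0.06 and 21.4% called. In the list of 14 ERK feedback genes (median -0.55, 14.3% called) EGR1 fell from 8.25 and 8.40 to 5.45 and 5.39 (-2.90 ± 0.66, adjusted p = 0.035) and SPRED2 by 0.64. With the block 7 fell, or 50% called, against 47.1% of all genes in either direction and 20.8% lower. For ERK feedback, the number called lower was 0, 0, 0 and 0 without scramble replicate 1, scramble replicate 2, shRNA 2 replicate 1 and shRNA 2 replicate 2 (5, 3, 3 and 4 at an unadjusted p under 0.05 in limma). For the proteases, the number called higher was 0, 0, 1 and 2 without scramble replicate 1, scramble replicate 2, shRNA 2 replicate 1 and shRNA 2 replicate 2 (5, 6, 5 and 5 at an unadjusted p under 0.05 in limma).

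Of 25 genes of the BCL2 family, caspases and death receptors 4 fell and 1 rose (median 0.14), or 20% called against 28.3% of all genes. CASP2 fell by 2.38, APAF1, the scaffold of the apoptosome, by 1.58, the death receptor TNFRSF10B by 1.34 with a second probe set at 0.00, and FAS by 0.89. BAD rose by 0.87. MCL1 (-0.05), BAX (0.05) and BCL2L1 (0.24) were not called. Of 19 p53 target genes, read here in cells without p53, 7 fell and 1 rose (median -0.47), or 42.1% called. They share SESN2, TNFRSF10B, FAS and RRM2B with the lists above, and the rise was of TP53I3 (0.93). GADD45A (-0.11) and MDM2 (0.05) were not called. For the p53 targets, the number called lower was 1, 2, 1 and 3 without scramble replicate 1, scramble replicate 2, shRNA 2 replicate 1 and shRNA 2 replicate 2 (9, 8, 7 and 6 at an unadjusted p under 0.05 in limma). For the apoptosis list, the number called lower was 1, 3, 0 and 2 without scramble replicate 1, scramble replicate 2, shRNA 2 replicate 1 and shRNA 2 replicate 2 (4, 4, 4 and 4 at an unadjusted p under 0.05 in limma).

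Of 21 tested interferon response genes 6 rose and 1 fell (median 0.38), or 33.3% called, which is close to the 28.3% of all genes. ISG20, an antiviral exonuclease, read 4.94 and 5.09 in scramble cells and 7.64 on both shRNA 2 arrays (2.63 ± 0.17, adjusted p = 0.0039). With shRNA 1 it differed from scramble by -1.35. ISG15, a ubiquitin-like modifier, read 10.01 and 10.04 and then 11.77 and 12.02 (1.87 ± 0.17, adjusted p = 0.0053). HERC6 and IFIT3 rose by 1.07 and 0.72 and HERC5 fell by 0.74, while IRF1 (-0.14), OAS3 (-0.08) and B2M (-0.10) were not called. With the block 8 rose and 1 fell, or 42.9% called against 47.1% of all genes. For the interferon list, the number called higher was 1, 4, 0 and 2 without scramble replicate 1, scramble replicate 2, shRNA 2 replicate 1 and shRNA 2 replicate 2 (5, 10, 8 and 5 at an unadjusted p under 0.05 in limma). Of 10 tested inflammatory and NF-kB genes limma called 0, with 2 higher and 0 lower at an unadjusted p under 0.05 and 3 higher with the block, and the median was 0.10. TNFAIP3 (1.21) and NFKB2 (-0.72) differed most.

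In the TGF-beta pathway 5 of 21 tested members rose (median 0.26), or 23.8% called against 28.3% of all genes. The ligand gene TGFB2 rose by 1.25, LTBP1, which stores the latent ligand, by 1.58, and the target TGFBI from 8.56 and 9.0 to 10.73 and 11.12 (2.15 ± 0.22, adjusted p = 0.0065). The signal carriers SMAD3 (0.49) and SMAD2 (0.74) rose too, but other probe sets of SMAD2 lay between -2.28 and 0.44. With the block 8 rose and 5 fell, the falls being ID1 (-1.49), CCN2 (-1.41), ID2 (-1.37), CCN1 (-1.21) and TGIF1 (-0.41). In the Notch pathway 5 of 21 rose and 2 fell (median 0.10), or 33.3% called. The falls were of the receptor NOTCH2 (-0.94) and of RBPJ, the rises of the ligand genes JAG1 (0.80) and DLL3 (0.83), PSEN2 of gamma-secretase (1.23), MAML3 (1.24) and DTX3 (1.36, with a second probe set at 0.00). The targets HES1 (0.60) and HEY1 (0.78) were not called. Of 17 clock genes 3 rose and 2 fell (median 0.11), or 29.4% called. BMAL1, the positive arm of the clock, read 6.79 and 6.99 and then 9.0 and 8.52 (1.87 ± 0.20, adjusted p = 0.0068). NR1D2, a repressor of BMAL1, fell by 2.27 and PER3 by 1.67, while BHLHE41 (1.02) and CSNK1D (0.62) rose and CLOCK (0.11) was not called. In the TGF-beta list, the number called higher was 0, 3, 0 and 1 without scramble replicate 1, scramble replicate 2, shRNA 2 replicate 1 and shRNA 2 replicate 2 (5, 10, 5 and 6 at an unadjusted p under 0.05 in limma). In the Notch list, the number called higher was 0, 1, 0 and 1 without scramble replicate 1, scramble replicate 2, shRNA 2 replicate 1 and shRNA 2 replicate 2 (6, 5, 6 and 4 at an unadjusted p under 0.05 in limma). In the clock list, the number called higher was 0, 1, 0 and 1 without scramble replicate 1, scramble replicate 2, shRNA 2 replicate 1 and shRNA 2 replicate 2 (4, 4, 3 and 3 at an unadjusted p under 0.05 in limma).

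Of 20 cholesterol synthesis genes 8 rose and 1 fell (median 0.36), which is 45% called against 28.3% of all genes. SC5D, a late enzyme, read 9.43 and 9.12 in scramble cells and 10.84 and 10.67 with shRNA 2 (1.48 ± 0.18, adjusted p = 0.0084), NSDHL rose by 0.91, MSMO1 by 0.56 and IDI1 by 0.92, with other probe sets of IDI1 between -0.71 and 0.91. The fall was of INSIG1 (-0.69), the sterol-sensing brake of the pathway. HMGCS1 (0.24) and the regulator SREBF2 (-0.05) were not called. For cholesterol synthesis, the number called higher was 0, 0, 0 and 0 without scramble replicate 1, scramble replicate 2, shRNA 2 replicate 1 and shRNA 2 replicate 2 (7, 8, 8 and 8 at an unadjusted p under 0.05 in limma). Among 31 oxidative phosphorylation genes 3 rose and 1 fell (median 0.24, 12.9% called): SDHA (0.65), NDUFV2 (0.57) and ATP5F1C (0.59, with another probe set on the negative side) against SDHD (-0.61). In 26 glycolysis and hypoxia genes the 2 calls (7.69%) were the hexokinases HK1 (1.26) and HK2 (1.08), the latter with other probe sets at -1.67 and -0.89, and the median was 0.09. GAPDH (0.01) and ENO1 (-0.03) stood at the level of scramble cells.

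Of 23 lysosomal genes 3 rose and 2 fell (median 0.00), or 21.7% called against 28.3% of all genes. LAMP1, the main glycoprotein of the lysosomal membrane, read 12.46 and 12.59 in scramble cells and 9.02 and 9.28 with shRNA 2 (-3.38 ± 0.15, 10.4-fold, adjusted p = 0.0036). Its 2 other probe sets gave -3.50 and -2.09, and the groups did not overlap, as for 29.8% of all tested genes on that side. ATP6V1A, of the proton pump, fell by 1.03, and the cathepsins CTSD and CTSA rose by 0.89 each, while LAMP2 (-0.72) was called only with the block. Of 49 mitochondrial ribosomal proteins 5 rose and 2 fell (median 0.17), or 14.3% called. Among the rises were MRPL34 by 1.02 and MRPL28 by 0.75, and among the falls MRPL49 by 1.64 and MRPS27 by 0.95. With the block 17 rose and 3 fell, or 40.8% called against 47.1% of all genes. Scramble replicate 1 was above replicate 2 for 47 of the 49. Without scramble replicate 1, scramble replicate 2, shRNA 2 replicate 1 and shRNA 2 replicate 2 limma called 0, 0, 0 and 0 of them higher (16, 4, 4 and 10 at an unadjusted p under 0.05), and their median was 0.37, -0.04, 0.08 and 0.27. In the 32 cytosolic ribosomal proteins 1 fell, RPL19 (-0.62), with a list median of -0.05. Limma called 0 of 22 ribosome biogenesis genes, with 1 lower at an unadjusted p under 0.05 and 1 rise and 2 falls with the block (median -0.09). UTP15 (-0.81) and POLR1C (0.60) differed most. In the small RNA pathway, which processes hairpin RNAs, 2 of 12 (16.7%) rose, TNRC6A (0.69) and TNRC6B (0.74), with a median of 0.32. With the block 6 rose, or 50% called, against 47.1% of all genes in either direction and 26.3% higher. DICER1 (0.48) and AGO2 (0.40) were called only with the block.

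The largest rises belonged to no single list. CBLN2, a secreted organiser of synapses, read 3.73 and 2.25 in scramble cells and 7.30 and 6.39 with shRNA 2 (a difference of 3.86), with 1 scramble array next to the lowest value of the table. PDLIM7, which ties signalling proteins to actin fibres, read 4.54 and 5.18 and then 8.37 and 8.64 (3.65 ± 0.27, adjusted p = 0.0046). EPHA7, an ephrin receptor, read 4.37 and 4.63 and then 7.63 and 7.69 (3.16 ± 0.25, adjusted p = 0.0046). These scramble values lay near the filter of 4, and both shRNA 2 arrays were more than 2 units above both of them. ACOX2, a peroxisomal oxidase of bile acid intermediates and branched fatty acids, went from 4.87 and 5.18 to 8.13 and 8.22 (3.15 ± 0.14, 8.89-fold, adjusted p = 0.0036). SOCS1, a brake on cytokine signalling, went from 3.87 and 4.13 to 6.85 and 7.42 (a difference of 3.14). CRH, the corticotropin-releasing hormone, went from 6.59 and 7.40 to 9.70 and 10.33 (3.02 ± 0.39, adjusted p = 0.0097). In each of them the scramble arrays were the low ones. CLU, or clusterin, a secreted chaperone, went from 7.67 and 7.28 to 10.49 and 10.18 (2.86 ± 0.19, adjusted p = 0.0042), and its second probe set rose by 3.26. The other rises among the 15 largest were PRDM11 (3.32, with a second probe set at -1.01), the coronin CORO2B (3.12), H4C8 (2.94), RGL1, an activator of Ral GTPases (2.92), SYT11, a synaptotagmin (2.91), MGLL, which degrades monoacylglycerols (2.90), HHIP-AS1 (2.87) and ENTREP2 (2.83). Of these 15, CBLN2, SOCS1, H4C8, RGL1, SYT11 and HHIP-AS1 passed the filter through the shRNA 2 arrays alone, so their rank and size are no support for a rise. Across all 1407 called genes with more than 1 tested probe set, 195 (13.9%) had another probe set of the opposite sign.

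Many genes differed between the shRNAs, although KDM5A was low with both. The shRNAs were compared directly, without the scramble arrays but with the same shRNA 2 arrays as above: 2338 genes (22.2%) were higher and 1761 (16.7%) lower with shRNA 2 than with shRNA 1. Over probe sets this comparison called 8146, against 4601 without shRNA 1 replicate 1, 2988 without shRNA 2 replicate 1 and 4147 without shRNA 2 replicate 2. In the cell division lists 92 of 141 were lower with shRNA 2 than with shRNA 1, with a median difference of -2.04, and the median of shRNA 1 minus scramble was -0.02. In DNA replication and repair it was 46 of 98, with a median difference of -1.36 and a median of -0.15 for shRNA 1. DTL read 10.44 and 8.89 with shRNA 1 and was lower with shRNA 2 by 5.90 ± 0.61 (adjusted p = 0.0035). The same difference was -5.31 ± 0.44 for CKS1B, -4.69 ± 0.40 for CDK2, -4.57 ± 0.39 for CENPQ and -4.51 ± 0.40 for DEPDC1B (largest adjusted p = 0.0025). With shRNA 1 these 4 genes differed from scramble by -0.20, 0.13, 0.36 and -0.10.

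In the ATF4 and amino acid lists the median was -0.52 with shRNA 1 and -0.58 with shRNA 2, with a median difference of -0.04. Of these 85 genes 21 were lower and 13 higher with shRNA 2 than with shRNA 1, or 40% against 38.9% of all genes. The lists differed in this. In cystine and glutathione genes the median with shRNA 1 was -0.11 and the median difference -0.82 (10 of 17 lower, 1 higher). In ATF4 effectors these medians were -1.30 and 0.08 (2 of 15 lower, 2 higher). Against scramble, ATF5 differed by 0.84 with shRNA 1 and by -1.74 with shRNA 2, and TXN by -0.22 and -2.31. GARS1 was 1 of the 13, at -1.88 with shRNA 1 and -0.69 with shRNA 2. SESN2 read 5.52 and 5.63 with shRNA 1 (difference 0.01 ± 0.12, adjusted p = 0.95) and SLC7A5 9.55 and 9.25 (0.10 ± 0.23, adjusted p = 0.78). A p above the threshold does not show that these levels are alike. CHAC1 was lower with shRNA 2 by 1.21 ± 0.16 (adjusted p = 0.0061), PHGDH by 1.37 ± 0.27 (adjusted p = 0.018) and ATF4 by 0.74 ± 0.11 (adjusted p = 0.0075). ITGB1, at 12.79 and 13.16 with shRNA 1, was lower with shRNA 2 by 1.47 ± 0.22 (adjusted p = 0.0079), and SETD7 by 1.25 ± 0.11 (adjusted p = 0.0026). LAMP1, LAMC1 and CNN3 differed from scramble by 0.22, 0.29 and -0.25 with shRNA 1 and were lower with shRNA 2 than with shRNA 1 by 3.60, 3.77 and 3.07 (adjusted p = 0.0014 to 0.0017). CDKN1A read 6.40 and 6.02 with shRNA 1 and was higher with shRNA 2 by 1.37 ± 0.23 (adjusted p = 0.011).

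Among the genes called both against scramble and against shRNA 1, the largest excess with shRNA 2 was that of CRH, at 3.20 and 3.80 with shRNA 1 (difference 6.51 ± 0.39, adjusted p = 0.0016). MMP1 followed, at 2.84 on both shRNA 1 arrays (5.56 ± 0.56, adjusted p = 0.0033), then ACOX2 (4.74 ± 0.14), MGLL (4.73 ± 0.61) and RAB39B, a small GTPase of vesicle traffic (4.60 ± 0.25). Scramble cells lay between the shRNAs in all 5. Of the 2267 genes called in both tests, 844 had the arrays of the shRNAs on opposite sides of both scramble arrays, and for 69 of those each shRNA differed from scramble at least 2-fold. Both tests use the same shRNA 2 arrays, so calls in both favour genes with scramble between the shRNAs. These counts and the place of scramble in those 5 are therefore a description, with no share over all tested genes beside them.

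**Figure D5:**
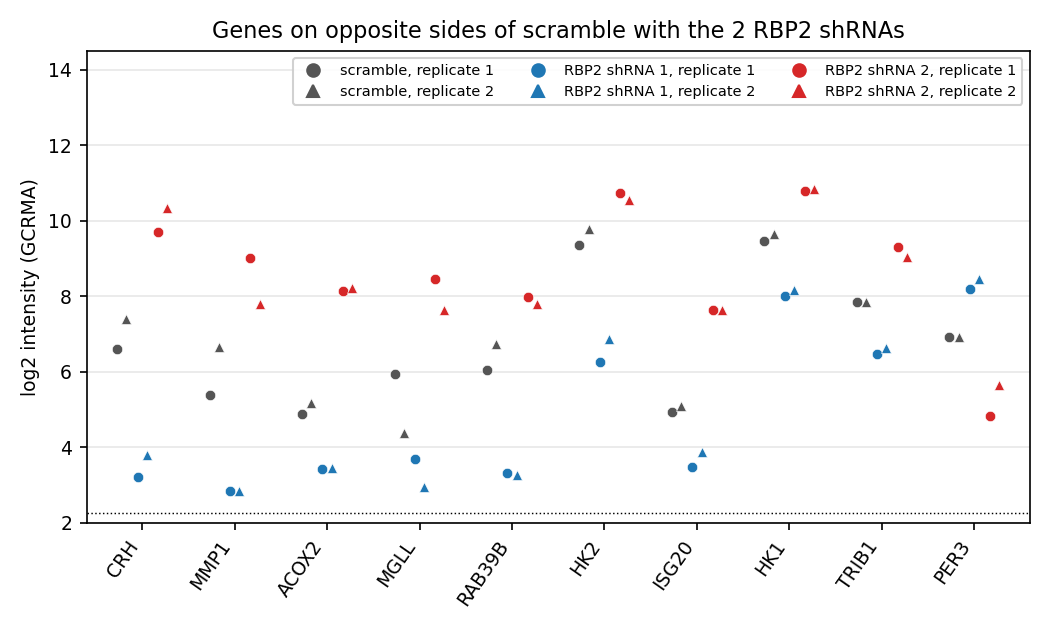
Log2 intensity (y axis) on each array for 10 named genes that were called in both tests and whose shRNA 1 and shRNA 2 arrays lie on opposite sides of both scramble arrays, at least 2-fold from them each. CRH has the widest span, from 3.20 and 3.80 with shRNA 1 to 9.70 and 10.33 with shRNA 2, and PER3 is the one gene that is lower with shRNA 2.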

How the data were processed

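The values analysed are log2 intensities that the authors deposited in the series' value table, made with GCRMA per the submitters' processing notes, which corrects background, normalises between arrays and summarises each probe set (version not given in the sources used here). They hold 54613 probe sets besides controls on 6 arrays, and 37.8% to 38.7% of an array's values stand at the lowest value, 2.24, which shrinks changes of dim genes. Groups were taken from the sample labels. Probe sets with a mean of at least 4 over the 6 arrays were tested (lowest mean inside 4.0001, highest outside 3.9993). Of all probe sets 41091 carried 1 gene symbol, 1801 several and 11721 none, and 41037 of those with 1 were matched to RefSeq by gene ID. No arrays held identical values, and array numbers limit the precision: the median SE was 0.17.

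Limma 3.58.1 in R 4.3.3 fitted 1 mean per group over all 6 arrays (3 residual degrees of freedom, 2.007 prior) with eBayes, and p-values were adjusted with Benjamini-Hochberg over all 22330 probe sets; SE is the standard error of that fit. Its code was checked on simulated data. The fit with the replicate number as a block is an alternative. Same-numbered arrays deviated together from their group means (correlations of 0.70, 0.48 and 0.51 for the 3 pairs of groups). Each number was therefore treated as marking a pair in that alternative and in the pair differences. The main fit, which gives the calls, SEs and adjusted p-values unless the block is named, has no term for the pair. Other alternatives were other filters, scalings, probe set choices and each array left out. The members and the 51 gene lists (940 listed genes tested) were chosen with earlier results of these data known. Named genes are KDM5A, the 15 largest rises and falls among called genes, up to 4 called members of each list with the smallest adjusted p (or the 2 largest changes where none was called), and the 5 largest differences between the shRNAs each way. All others were picked after their values were seen. A gene that this rule takes in is not reported here. Promoters are from RefSeq (GRCh38.p14), and Python 3.11.15 with pandas 2.3.3 made the summaries.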

Additional observations from a re-analysis of the deposited data

Results flagged for a closer look

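For 10 named genes the arrays of the shRNAs lay on opposite sides of both scramble arrays, at least 2-fold each, and the difference between the shRNAs itself was called by limma. They were picked by these same values, which therefore add no support. Of these, 9 were higher with shRNA 2 than with shRNA 1 on the log2 scale: CRH by 6.51, MMP1 by 5.56, ACOX2 by 4.74, MGLL by 4.73, RAB39B by 4.6, the hexokinase HK2 by 4.08, ISG20 by 3.98, HK1 by 2.74 and TRIB1 by 2.62. The clock gene PER3 was the other one, with a difference of -3.08. PER3 stood at 6.91 on both scramble arrays, at 8.18 and 8.45 on the shRNA 1 arrays and at 4.83 and 5.65 on those of shRNA 2. HK2 stood at 9.35 and 9.78 on the scramble arrays, at 6.26 and 6.86 on the shRNA 1 arrays and at 10.73 and 10.55 on those of shRNA 2, and its other probe sets lay at -1.67 and -0.89 for shRNA 2 minus scramble. KDM5A was below scramble with both shRNAs, by 2.04 with shRNA 1 and 2.69 with shRNA 2.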

How the results depend on the processing

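Against 5653 probe sets called for shRNA 2 minus scramble, there were 9627 with the replicate block, 1379 with no filter on dim probe sets, 3264 with the brightest probe set of each gene and 2913 with the mean over a gene's probe sets, the last 2 over fewer features (10526 and 9555). Leaving out 1 array gave 177 to 4713. With the block on the arrays of shRNA 2 and scramble alone, an alternative chosen after seeing the data, there were 6969. For shRNA 2 minus shRNA 1 (8146) there were 3348 with no filter, 4327 with the brightest probe set, 3807 with the mean and 2988 to 6643 with 1 array left out. KDM5A was called under all alternatives, with -2.73 to -2.29. Of the 186 other named genes the block ended no call and added 3. Calls were lost for 150 without scramble replicate 1, 83 without scramble replicate 2, 163 without shRNA 2 replicate 1, 105 without shRNA 2 replicate 2, 126 with no filter, 16 with the mean over probe sets, 1 with quantile normalization, 4 with the added block and 11 with the arrays compared alone, which is also the number without either shRNA 1 array. Direction turned for IDI1 (-0.71) and ATP5F1C (-0.33) without probe sets ending in _x_at, and for SMAD2 (-0.12) and HK2 (-0.50) with that mean, where other probe sets of the gene went the other way. Probe sets near the lowest value limit what can be seen of dim genes.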
